A study of Mus musculus with 22 samples.

Results

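The collagen genes were taken as all autosomal protein-coding genes of GENCODE M21 (basic set) whose symbol is Col, a number, the letter a and a number. There were 42 such genes among 20720 autosomal protein-coding genes. They were grouped as 11 fibrillar collagens, 4 basement membrane collagens (type IV) and 27 others. The others were 9 fibril-associated, 6 beaded filament, 3 short-chain network, 4 transmembrane and 2 multiplexin collagens, 1 anchoring fibril collagen and 2 further genes.

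The cells were mouse embryonic stem cells cultured with serum and LIF, the cytokine that keeps them undifferentiated, and were profiled by chromatin immunoprecipitation and sequencing (ChIP-seq). The wild-type cells were line E14, with lists for MTF2, EZH2, H3K27me3 and H3K4me3. The other cells, labelled Mtf2 GT/GT, carried a gene trap cassette that interrupts the coding sequence of Mtf2 and were profiled for EZH2, H3K27me3 and H3K4me3. Of 22 libraries in 12 groups, 14 stood behind the 7 peak lists analysed, and the other 8 were not analysed here. The labels name E14 in the free text of the gene-trap libraries but not as their cell line, and they do not say whether the gene-trap cells were 1 clone, so genotype and line cannot be told apart. Whether MTF2 was absent from the gene-trap cells was not checked, since their lists do not include one for MTF2.

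Collagens are trimeric matrix proteins that pluripotent cells mostly do not need, whereas mesenchyme, cartilage, endoderm and epithelia use different sets of them. Polycomb repressive complex 2 (PRC2), whose catalytic subunit is EZH2, puts H3K27me3 on the CpG-rich promoters of many genes of later lineages, and MTF2 is one of its DNA-binding partners. In stem cells many such promoters also carry H3K4me3, the mark of promoters competent for transcription, and are then called bivalent.

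A promoter was the stretch within 1 kb of any transcription start site (TSS) of a gene's protein-coding transcripts. A peak that touched it by 1 bp counted. Starts of other transcripts were not used, so the annotated gene can begin further upstream, as at Col1a2, Col25a1 and Col27a1. A gene kept a mark when that mark was listed at its promoter in both lines. A width is that of the widest peak touching the promoter, and all positions are on GRCm38 (mm10). Each group had 1 list for both of its libraries, holding positions only. There was therefore no spread between replicates and no depth, no test was made between the lines, and every statement describes where peaks were listed. A peak that is missing from a list may also lie under the threshold of the list. The lists held 6357 MTF2, 7213 EZH2, 6294 H3K27me3 and 27418 H3K4me3 peaks in wild type, and 840 EZH2, 963 H3K27me3 and 26960 H3K4me3 peaks in gene trap. The labelled cell type was checked against marker genes: all 8 embryonic stem cell markers had H3K4me3 peaks in both lines, with widths of 8872 to 36617 bp in wild type and 3855 to 21479 bp in gene trap. Of 8 fibroblast markers, 5 had H3K4me3 and each of these also had H3K27me3 in wild type, while the promoters of Dcn, Lum and Postn had no peak in any list. All 7 primitive endoderm markers had peaks in each of the 4 wild-type lists, and 5 of them were still listed with H3K27me3 in gene trap. Primitive endoderm is a source of type IV collagen in the early embryo.

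In wild-type cells most collagen promoters carried H3K27me3, and MTF2 and EZH2 lay at most of these. H3K27me3 touched 26 of the 42 promoters (61.9%, 95% interval 45.6 to 76.4), against 20.0% of all autosomal genes. MTF2 touched 21 promoters (50%, 34.2 to 65.8), against 16.4% of all. EZH2 touched 20 (47.6%, 32 to 63.6), against 17.1%. H3K4me3, at 30 promoters (71.4%, 55.4 to 84.3), stood close to its background of 67.0%. The intervals are exact binomial ones and cover counting error over genes only, and genes that share a promoter are not independent.

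The marks were stacked. MTF2, EZH2 and H3K27me3 were all present at 20 promoters (47.6%; 15.2% of all genes). MTF2 and H3K27me3 without EZH2 were at Col24a1 (2.38%; 0.502% of all). H3K27me3 without either protein was at Col1a1, Col1a2, Col11a1, Col11a2 and Col6a6 (5 genes, 11.9%; 3.27% of all). No collagen promoter had MTF2 or EZH2 without H3K27me3. Of all genes, 0.43% had both proteins without the mark, 0.251% had MTF2 only and 0.512% EZH2 only. The collagen count is near these low shares. Both histone marks were at 25 promoters (59.5%), against 18.9% of all genes. MTF2 was at 80.8% of the collagen promoters with H3K27me3, close to the 78.8% found over all genes with that mark. None of the 4 wild-type lists touched 11 promoters, 26.2% of the collagens, against 32.0% of all.

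**Figure D1:**
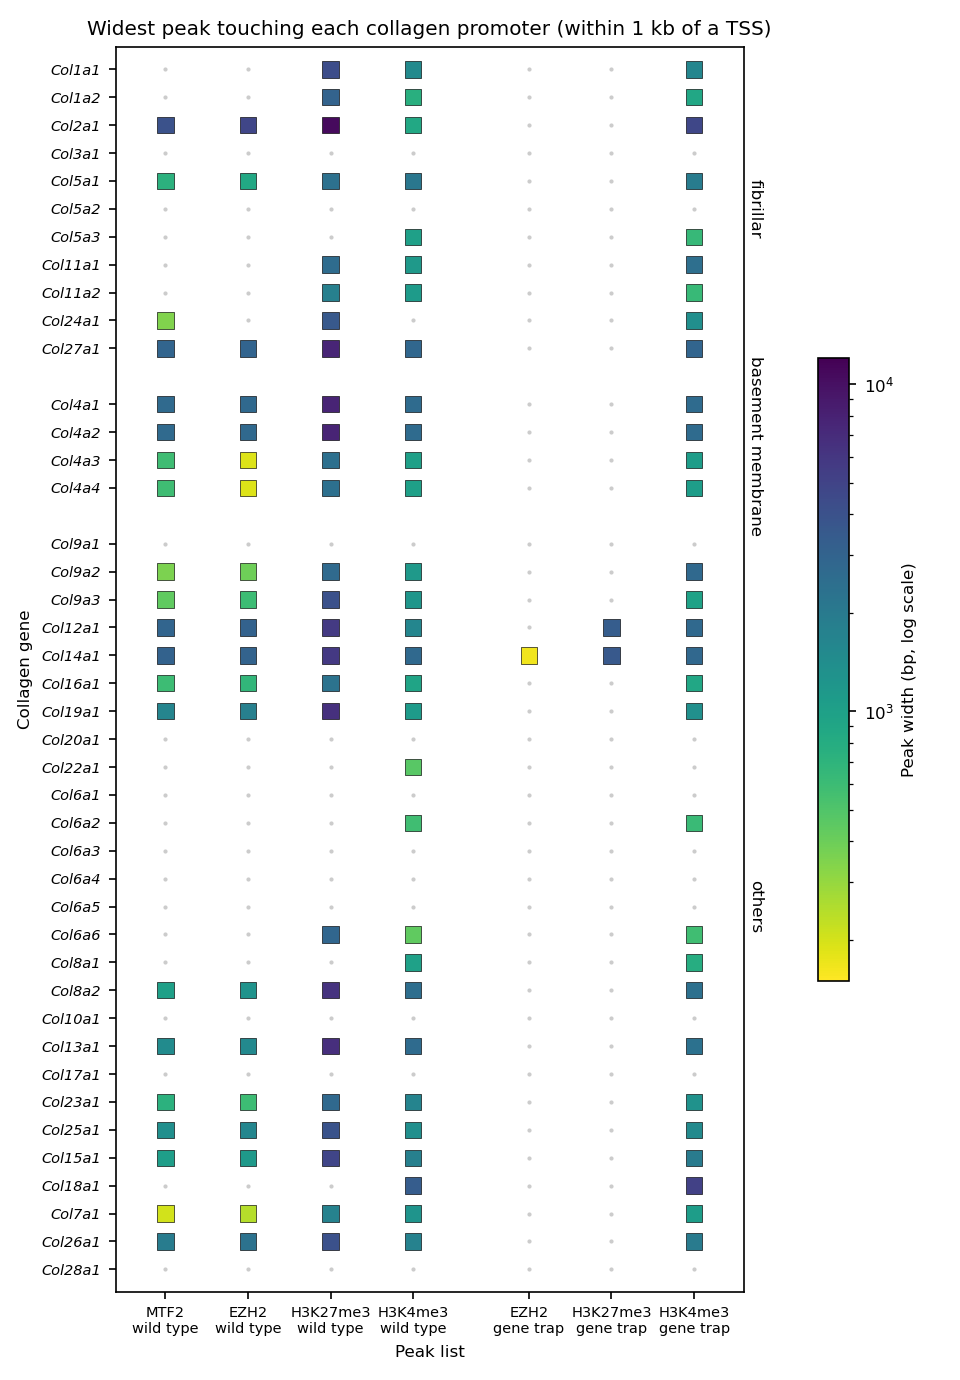
Peaks at the 42 collagen promoters in the 7 lists. Rows are genes grouped by type and columns are lists; a square means that a peak touched the promoter and its shade gives the width of the widest one in bp on a log scale, and a dot means no peak. Wild-type MTF2, EZH2 and H3K27me3 fill 21, 20 and 26 rows, and the gene-trap EZH2 and H3K27me3 columns are filled in 1 and 2 rows, while H3K4me3 fills 30 rows in each line.

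In gene-trap cells the Polycomb peaks were missing from nearly all collagen promoters, and H3K4me3 was still listed. H3K27me3 touched 2 promoters (4.76%; 2.82% of all genes) and EZH2 touched 1 (2.38%; 0.772% of all genes). Of the 26 promoters with wild-type H3K27me3, 24 had none in gene trap (92.3%), against 86.0% of all promoters with the mark, and Col12a1 and Col14a1 kept it. Of the 20 with wild-type EZH2, Col14a1 kept it (5%), against 4.34% of all. H3K4me3 was kept at 29 of 30 (96.7%; 98.8% of all) and touched 30 promoters in gene trap (67.5% of all genes). Of the 25 bivalent collagen promoters, 23 had H3K4me3 only in gene trap (92%), against 85.1% of all bivalent promoters. Both histone marks were thus left at 2 collagen promoters (4.76%; 2.78% of all genes). The shares of collagen promoters that kept EZH2 and H3K4me3 stood near those of all genes, and the share without H3K27me3 was a little above that of all genes, a gap of under 2 genes.

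The same picture held for the length covered within 5 kb of the first TSS of each gene. EZH2 peaks covered 31327 bp over the 42 genes in wild type and 164 bp in gene trap, 0.524% of the former. H3K27me3 covered 105232 bp and 8588 bp, or 8.16%. H3K4me3 covered 45367 bp and 51966 bp, or 115%. The whole lists covered 8626 kb in wild type and 326.3 kb in gene trap for EZH2, and 29329 and 4664 kb for H3K27me3. For H3K4me3 they covered 64279 and 52604 kb, which is lower in gene trap, whereas the length near the collagen starts was higher.

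The fibrillar collagens form the rope-like fibrils of bone, skin, tendon and cartilage. In wild type H3K27me3 touched 8 of the 11 (72.7%; 20.0% of all genes), MTF2 4 (36.4%; 16.4%) and EZH2 3 (27.3%; 17.1%). No gene-trap peak of EZH2 or H3K27me3 touched any of them, where 86.0% of all marked promoters had no H3K27me3 and 4.34% kept EZH2, so 0 of 8 and 0 of 3 are near the background. H3K4me3 touched 8 in wild type and 9 in gene trap (81.8%; 67.5% of all). H3K27me3 coverage near their starts was 34921 bp in wild type and 1615 bp in gene trap.

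Col2a1, the main collagen of cartilage, had the widest Polycomb peaks of the family. In wild type its MTF2 peak was 4005 bp wide, its EZH2 peak 4842 bp and its H3K27me3 peak 10789 bp. Its H3K4me3 peaks at the promoter were 871 bp wide in wild type and 4682 bp in gene trap. The gene-trap lists had no EZH2 or H3K27me3 peak at the promoter, but an H3K27me3 peak of 1615 bp lay 3284 bp downstream of the nearest TSS, at chr15:97999759-98001373, inside the wild-type domain, of which it covered 15%. Its 200 bases before the start are shown because they lie wholly inside wild-type MTF2, EZH2, H3K27me3 and H3K4me3 peaks and hold 18 CpG, the most of the sequences printed here. CpG dinucleotides are in capitals in each sequence shown, all of which were read from the GRCm38 genome sequence of RefSeq and run 5' to 3' toward the gene.
Col2a1, chr15:98004696-98004895, minus strand: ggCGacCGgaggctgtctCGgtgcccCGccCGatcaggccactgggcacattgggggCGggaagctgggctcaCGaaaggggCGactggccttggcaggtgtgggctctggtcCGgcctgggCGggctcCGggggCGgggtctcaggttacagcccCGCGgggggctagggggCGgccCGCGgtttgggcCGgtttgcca

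Col27a1, a minor fibrillar collagen of cartilage, had MTF2, EZH2 and H3K27me3 peaks of 2927, 2951 and 7582 bp. Its H3K4me3 peak was 2819 bp wide in wild type and 2916 bp in gene trap. Col5a1, which with type I collagen sets the diameter of fibrils, had narrower peaks of 734 bp for MTF2, 871 bp for EZH2 and 2363 bp for H3K27me3. Both genes had H3K4me3 alone in gene trap, which for Col5a1 was 1940 bp wide against 2098 bp in wild type.

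Col1a1 and Col1a2 encode the chains of type I collagen, the main protein of bone, skin and tendon. Neither had an MTF2 or EZH2 peak at its promoter. The nearest wild-type MTF2 peak was 54.7 kb from Col1a1 and 242 kb from Col1a2. H3K27me3 was 4328 bp wide at Col1a1 and 3013 bp at Col1a2 in wild type, and neither was listed in gene trap. At Col1a1 the wild-type H3K27me3 peak began upstream and ended 525 bp after the TSS, the H3K4me3 peak began 500 bp after the TSS, and a second H3K27me3 peak of 1335 bp lay in an intron. The H3K4me3 peak of Col1a1 was 1499 bp wide in wild type and 1611 bp in gene trap. That of Col1a2 was 754 bp wide in wild type and 880 bp in gene trap. The 200 bases before these starts are shown as promoters with H3K27me3 and no MTF2 peak. They hold 7 CpG at Col1a1 and 10 at Col1a2, and the Col1a1 stretch lies in the H3K27me3 peak but outside the H3K4me3 peaks.
Col1a1, chr11:94936024-94936223, plus strand: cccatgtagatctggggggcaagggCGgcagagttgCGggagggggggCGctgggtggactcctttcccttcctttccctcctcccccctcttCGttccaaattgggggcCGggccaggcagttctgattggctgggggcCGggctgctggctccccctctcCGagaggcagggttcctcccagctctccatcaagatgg
Col1a2, chr6:4505293-4505492, plus strand: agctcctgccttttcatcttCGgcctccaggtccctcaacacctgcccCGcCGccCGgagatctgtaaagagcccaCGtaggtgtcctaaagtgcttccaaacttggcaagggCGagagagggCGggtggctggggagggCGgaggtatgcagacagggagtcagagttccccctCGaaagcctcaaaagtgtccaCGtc

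Col11a1 and Col11a2, chains of the type XI collagen that nucleates cartilage fibrils, had the same combination. Their wild-type H3K27me3 peaks were 2601 and 1810 bp wide, with no MTF2 peak nearer than 2220 kb and 38.8 kb. H3K4me3 at Col11a1 was 1150 bp wide in wild type and 2474 bp in gene trap. At Col11a2 it was 1104 bp wide in wild type and 627 bp in gene trap, so this pair differed in direction.

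Col24a1, a minor fibrillar collagen of developing bone, was the 1 collagen with H3K27me3 and no H3K4me3 in wild type. It had an MTF2 peak of 342 bp that began 81 bp after the TSS, an H3K27me3 peak of 3570 bp and its nearest EZH2 peak was 356 kb away. In gene trap neither Polycomb list touched it, and an H3K4me3 peak of 1377 bp was listed, the single H3K4me3 peak present at a collagen promoter in gene trap alone. Among all genes without wild-type H3K4me3, 4.02% had such a peak.

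Col5a3 had H3K4me3 alone, 1006 bp wide in wild type and 633 bp in gene trap. Col3a1, the type III collagen of vessels and skin, and its neighbour Col5a2, whose chain joins Col5a1, had no peak in any list. Their TSSs are 192 kb apart on chromosome 1, and the nearest wild-type H3K4me3 peak was 483 kb from Col3a1 and 291 kb from Col5a2. The 200 bases before the Col3a1 start are shown as a promoter without peaks, and they hold 0 CpG.
Col3a1, chr1:45311338-45311537, plus strand: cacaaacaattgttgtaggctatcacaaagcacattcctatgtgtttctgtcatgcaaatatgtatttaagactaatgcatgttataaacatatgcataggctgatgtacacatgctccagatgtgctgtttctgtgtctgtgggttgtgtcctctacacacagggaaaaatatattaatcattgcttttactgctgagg

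The 4 basement membrane collagens each had peaks in all 4 wild-type lists, where MTF2 touched 16.4%, EZH2 17.1% and H3K27me3 20.0% of all genes. Col4a1 and Col4a2, the chains found in nearly all basement membranes, start 21 bp apart on opposite strands of chromosome 8 and share every promoter peak. That shared promoter had peaks of 2691 bp for MTF2, 2717 bp for EZH2, 7742 bp for H3K27me3 and 2635 bp for H3K4me3. In gene trap it had H3K4me3 alone, 2621 bp wide. Col4a3 and Col4a4, chains of the kidney filter's basement membrane, start 127 bp apart on chromosome 1. Their shared promoter had much narrower MTF2 and EZH2 peaks of 581 and 189 bp, and an H3K27me3 peak of 2441 bp. Their H3K4me3 was 1009 bp wide in wild type and 1064 bp in gene trap. So the 4 genes stand for 2 promoters, both of them bivalent in wild type and with H3K4me3 alone in gene trap. H3K27me3 covered 10183 bp near the starts in wild type and 0 bp in gene trap. The gap of 126 bases between the Col4a4 and Col4a3 starts is shown because a single set of peaks spans both genes; it holds 5 CpG.
Col4a3, chr1:82586850-82586975, plus strand: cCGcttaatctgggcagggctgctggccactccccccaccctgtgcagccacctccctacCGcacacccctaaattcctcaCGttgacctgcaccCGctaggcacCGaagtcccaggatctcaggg

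With Col7a1, Col15a1 and Col18a1, which also belong to basement membrane zones, counted in this class, MTF2, EZH2 and H3K27me3 each touched 6 of 7 genes in wild type. Over all genes these shares were 16.4%, 17.1% and 20.0%. In gene trap EZH2 and H3K27me3 touched 0 of the 7. Of all marked promoters, 86.0% had no gene-trap H3K27me3 and 4.34% kept EZH2. Each shared type IV promoter is counted for both of its genes here. Inside Col4a2, 125268 bp from its start, wild type had an EZH2 peak of 194 bp and an H3K27me3 peak of 1681 bp, and gene trap had an H3K4me3 peak of 458 bp.

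The fibril-associated collagens sit on the surface of fibrils, and they held both genes that were still listed with H3K27me3. Among the 9, MTF2, EZH2 and H3K27me3 each touched 6 in wild type (66.7%; 16.4%, 17.1% and 20.0% of all genes). In gene trap H3K27me3 touched 2 (22.2%; 2.82% of all) and EZH2 touched 1 (11.1%; 0.772%). Of the 6 marked in wild type, 2 kept H3K27me3 (33.3%; 14% of all marked promoters) and 1 kept EZH2 (16.7%; 4.34%). These shares rest on 2 genes and 1 gene.

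Col14a1, which coats type I fibrils in skin and tendon, had an MTF2 peak of 3100 bp, an EZH2 peak of 3047 bp and an H3K27me3 peak of 5782 bp in wild type. In gene trap its EZH2 peak was 164 bp wide, at chr15:55307851-55308014. It lay just downstream of the first TSS at 55307750 and held a further TSS of the gene at 55307919. The gene-trap H3K27me3 peak was 3594 bp wide and covered 62.2% of the wild-type domain. H3K4me3 was 2714 bp wide in wild type and 2764 bp in gene trap.

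Col12a1, its close relative in tendon and ligament, had an MTF2 peak of 2901 bp, an EZH2 peak of 3096 bp and an H3K27me3 peak of 5731 bp. In gene trap no EZH2 peak was listed, and the H3K27me3 peak was 3379 bp wide, or 59% of the wild-type domain. Its H3K4me3 peak was 1603 bp wide in wild type and 2713 bp in gene trap. Both genes were therefore bivalent in both lines. The 200 bases before the Col14a1 start are shown as a promoter that lies inside H3K27me3 and H3K4me3 peaks of both lines, and they hold 13 CpG.
Col14a1, chr15:55307550-55307749, plus strand: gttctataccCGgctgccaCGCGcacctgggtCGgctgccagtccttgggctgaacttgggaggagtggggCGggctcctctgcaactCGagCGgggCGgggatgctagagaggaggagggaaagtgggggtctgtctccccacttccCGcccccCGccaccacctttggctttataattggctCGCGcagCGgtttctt

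Col12a1 and Col14a1 did not have the widest wild-type H3K27me3 domains. H3K27me3 of at least 5 kb, a limit chosen after the values were seen, was at 9 collagen promoters in 8 domains. Of these promoters, 2 were still listed with the mark in gene trap and 7 were not. The Col2a1 domain, counted among the 7, held a gene-trap peak of 1615 bp away from the promoter. Over all genes with a domain of that width, 31.5% were still listed. Domains wider than that of Col14a1 and without a gene-trap peak at the promoter were at Col2a1, Col27a1, Col4a1 with Col4a2, Col19a1, Col8a2 and Col13a1. The MTF2 peaks of Col12a1 and Col14a1 were wider than 89.8% and 90.9% of those at all promoters with MTF2. Col2a1 and Col27a1, at 94.7% and 89.9%, had no gene-trap H3K27me3 at their promoters.

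Of the other fibril-associated genes, Col19a1 had MTF2, EZH2 and H3K27me3 peaks of 1644, 1806 and 6507 bp. Its H3K4me3 was 1102 bp wide in wild type and 1356 bp in gene trap. Col9a2 and Col9a3, chains of the type IX collagen on cartilage fibrils, had short MTF2 peaks of 354 and 440 bp, EZH2 peaks of 395 and 597 bp, and H3K27me3 of 2697 and 4075 bp. Col16a1 had 596, 674 and 2251 bp for the same lists. In gene trap all of these had H3K4me3 alone, which was 2730 bp at Col9a2 against 1134 bp in wild type, 967 against 1200 bp at Col9a3, and 887 against 932 bp at Col16a1. Col22a1, a collagen of muscle and tendon junctions, had an H3K4me3 peak of 468 bp in wild type and none in gene trap, the single case among the collagens; 1.18% of all H3K4me3 promoters had none. Col9a1 and Col20a1 had no peak at their promoters. Far from its promoter, over the end of Col16a1 and the promoter of its neighbour Pef1, a wild-type H3K27me3 peak of 14353 bp was listed, with one of 4108 bp there in gene trap.

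**Figure D2:**
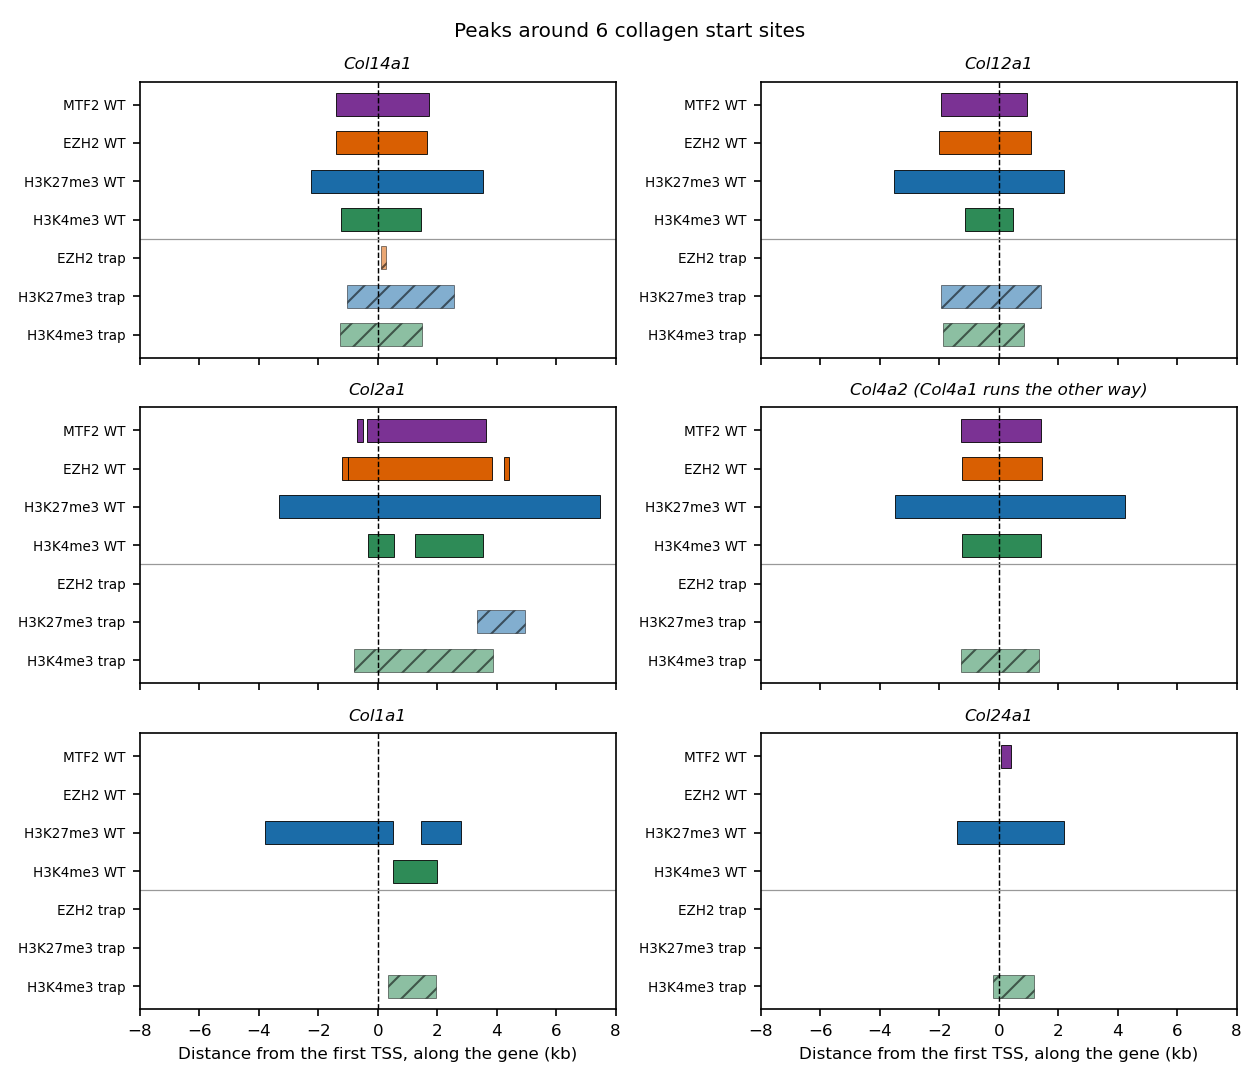
Peaks around the starts of 6 collagen genes, drawn to scale. The x axis is the distance in kb from the first TSS in the direction of transcription, each row is 1 of the 7 lists and each bar is a peak. Gene-trap H3K27me3 remains listed at the start of Col14a1 and Col12a1 and inside Col2a1; at Col1a1 the H3K4me3 peaks lie downstream of the start, and at Col24a1 the H3K4me3 peak is in gene trap only.

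The beaded filament collagens of type VI, which form microfibrils around cells, had neither MTF2 nor EZH2 at any of the 6 promoters. MTF2 touched 16.4% and EZH2 17.1% of all genes. Both lie within the interval of 0 to 45.9% for 0 of 6, so these counts are near the background. Col6a6 had H3K27me3 of 2886 bp in wild type and H3K4me3 of 436 bp in wild type and 573 bp in gene trap. Col6a2 had H3K4me3 alone, 579 and 611 bp wide. The promoters of Col6a1, Col6a3, Col6a4 and Col6a5 had no peak, so the main type VI chains Col6a1 and Col6a3 differed from their partner Col6a2. Inside Col6a4 wild type had H3K4me3 peaks of 1020 and 546 bp.

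In the short-chain network group, Col8a2, a collagen of the corneal Descemet membrane, had MTF2, EZH2 and H3K27me3 peaks of 1003, 1270 and 6323 bp at its promoter. Further sites lay inside the gene, with MTF2 peaks of 549, 768 and 1497 bp, EZH2 peaks of 692, 803 and 2110 bp, and a second H3K27me3 peak of 8357 bp. No gene-trap EZH2 or H3K27me3 peak touched the gene. Its promoter H3K4me3 was 2496 bp wide in wild type and 2442 bp in gene trap. Its partner Col8a1 had H3K4me3 alone, 995 and 788 bp wide, and Col10a1, the collagen of hypertrophic cartilage, had no peak.

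Of the 4 transmembrane collagens, 3 were bivalent in wild type (75%; 18.9% of all genes). These 3 had H3K4me3 alone in gene trap, as did 85.1% of all bivalent promoters, so this is near the background. Col13a1, which acts at the neuromuscular junction, had MTF2, EZH2 and H3K27me3 peaks of 1465, 1521 and 6628 bp, and H3K4me3 of 2638 bp in wild type and 2326 bp in gene trap. Col25a1, which motor axons need to enter muscle, had 1386, 1614 and 3919 bp, and H3K4me3 of 1365 and 1509 bp. Col23a1 had 729, 598 and 2711 bp, and H3K4me3 of 1670 and 1310 bp. Col17a1, the collagen of epithelial hemidesmosomes, had no peak at its promoter; inside the gene an H3K4me3 peak of 937 bp was listed in wild type and one of 1379 bp in gene trap.

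The multiplexins differed from each other. Col15a1 had MTF2, EZH2 and H3K27me3 peaks of 1055, 1143 and 4851 bp, and H3K4me3 of 1823 bp in wild type and 1970 bp in gene trap. Col18a1, the precursor of endostatin, had no Polycomb peak and the widest H3K4me3 peak of the family, 3352 bp in wild type and 5171 bp in gene trap, at its upstream TSS. At its downstream TSSs, more than 50 kb away, an H3K4me3 peak of 1671 bp was listed in wild type and none in gene trap. Col7a1, which forms the anchoring fibrils under the epidermis, had an MTF2 peak of 201 bp, the narrowest when the widest peak of each promoter is taken, with EZH2 of 243 bp and H3K27me3 of 1731 bp. Col26a1 had 1922, 2290 and 4036 bp. In gene trap both had H3K4me3 alone, of 1060 bp against 1234 bp at Col7a1 and 1964 against 1725 bp at Col26a1. Col28a1 had no peak.

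The MTF2 peaks described next were taken because they touched a promoter, so their nearness to the starts was set by the 1 kb window. Elsewhere in collagen genes 3 MTF2 peaks were listed, all inside Col8a2. The 21 genes with MTF2 at the promoter had 21 distinct peaks there. Each shared type IV pair counts once, while Col2a1 and Col13a1 had 2 peaks each. At 17 genes an MTF2 peak held a TSS, and at Col5a1, Col23a1, Col24a1 and Col9a2 it began 36, 67, 81 and 294 bp downstream. Of the 21 peaks, 21 overlapped wild-type H3K27me3, 19 wild-type EZH2 and 19 wild-type H3K4me3. In gene trap 3 of these places were overlapped by H3K27me3, 1 by EZH2 and 21 by H3K4me3.

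CpG density was measured around the first TSS (500 bp on either side), and its median was highest at collagen promoters with MTF2. With an MTF2 peak it ran from 2 to 9.79 CpG per 100 bp with a median of 6.19, against a median of 6.49 over all genes with MTF2. With H3K27me3 and no MTF2 it ran from 2.2 to 3.5 with a median of 3.1, against 4.4 over all genes with H3K27me3 or EZH2 and no MTF2. With H3K4me3 alone it ran from 1.7 to 4.4 with a median of 3.2, against 6.19 over all such genes. Without a peak it ran from 0.3 to 2.4 with a median of 1.2, against 0.799. Of the 21 MTF2 genes, 20 exceeded the highest gene without a peak, and the exception was Col24a1 at 2. Against the highest gene with H3K27me3 and no MTF2, 18 of the 21 were higher, Col9a3 at 3.3 and Col7a1 at 3 lay within that class's range, and Col24a1 lay below it. The highest gene with H3K4me3 alone, Col18a1 at 4.4, was level with the MTF2 genes Col14a1 and Col19a1. It was above Col4a3 at 4.3, Col4a4 at 4.2, Col9a2 at 3.8, Col9a3, Col7a1 and Col24a1, and the other MTF2 genes were higher. The median of the 5 collagens with H3K4me3 alone was thus below that of all such genes.

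**Figure D3:**
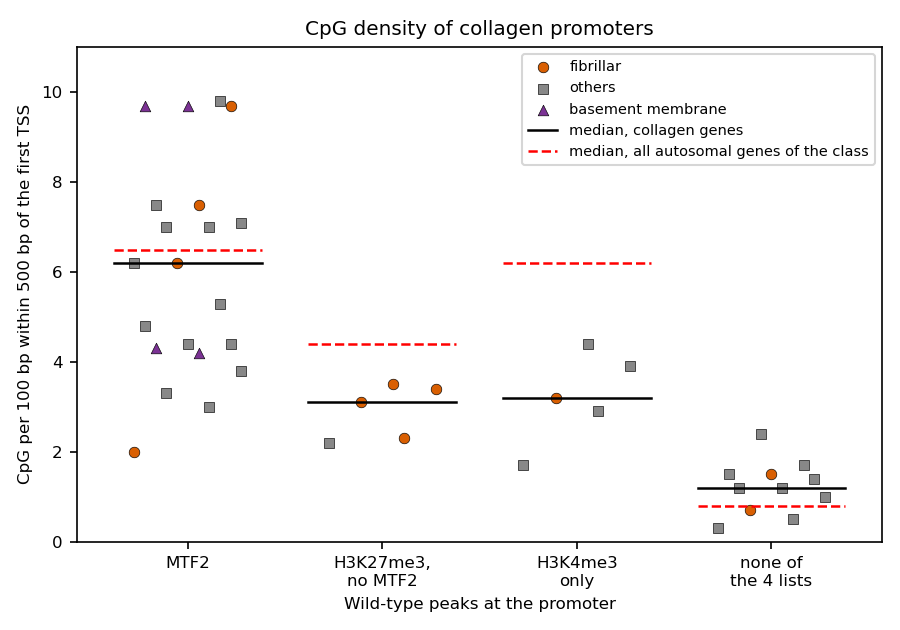
CpG density around the first TSS of the 42 collagen genes by class of wild-type peak. The y axis is CpG per 100 bp within 500 bp of the TSS, each point is a gene, the solid line is the collagen median and the dashed line the median over all autosomal genes of the class. The collagen medians are 6.19 with MTF2, 3.1 with H3K27me3 and no MTF2, 3.2 with H3K4me3 only and 1.2 without a peak.

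GCG trinucleotides, the core of the motif that MTF2 is known to bind, were counted on either strand in the 250 bases before the first TSS, so that GCG and its complement CGC both count and each overlaps a CpG. At least 1 was in 37 of 42 collagen promoters (88.1%), against 81.2% of all autosomal promoters. It was in 20 of the 21 with MTF2 (95.2%; 96.3% over all genes with MTF2), the exception being Col9a2, and in 7 of the 11 without a peak (63.6%; 48.5% over all such genes). The TATA box, searched as TATAAA on the sense strand starting 45 to 20 bases before the TSS, was in 2 collagens, Col10a1 and Col17a1 (4.76%; 2.72% of all). Neither of these promoters has a peak. These matches describe letters in a window and not binding.

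H3K4me3 peaks at collagen promoters had a lower median width than those of all genes in both lines, and a larger share of them was wider in gene trap. The median widest peak was 1217 bp in wild type, against 2490 bp over all genes, and 1560 bp in gene trap, against 2208 bp. Bivalent collagen promoters had a median of 1365 bp in wild type, while all bivalent promoters had 1843 bp. At the 29 genes with H3K4me3 in both lines, 17 peaks were wider in gene trap and 12 narrower. Over all genes 27.8% were wider, and the whole wild-type list covered 64279 kb against 52604 kb in gene trap. The median ratio of gene-trap to wild-type width was 1.05 for collagens and 0.912 for all genes. Among genes with wild-type H3K27me3 it was 1.05 for the 25 collagens and 1 for all, with 60% and 49.9% wider.

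At least 1.5 times wider in gene trap, a limit chosen after the values were seen, were 5 collagens (17.2%), against 3.21% of all genes. Among genes with wild-type H3K27me3 these shares were 16% of the 25 collagens and 5.86% of all. Col2a1 had a ratio of 5.38, but its gene-trap peak spanned 2 wild-type peaks of 3151 bp together, so the ratio of the covered lengths was 1.49. Col9a2 followed with 2.41, Col11a1 with 2.15, Col12a1 with 1.69 and Col18a1 with 1.54. The first 4 had H3K27me3 in wild type and Col18a1 did not. At least 1.5 times narrower were Col5a3 at 0.629 and Col11a2 at 0.568 (6.9%; 12.7% of all genes). Among genes with wild-type H3K27me3 the shares were 4% of collagens and 4.52% of all.

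**Figure D4:**
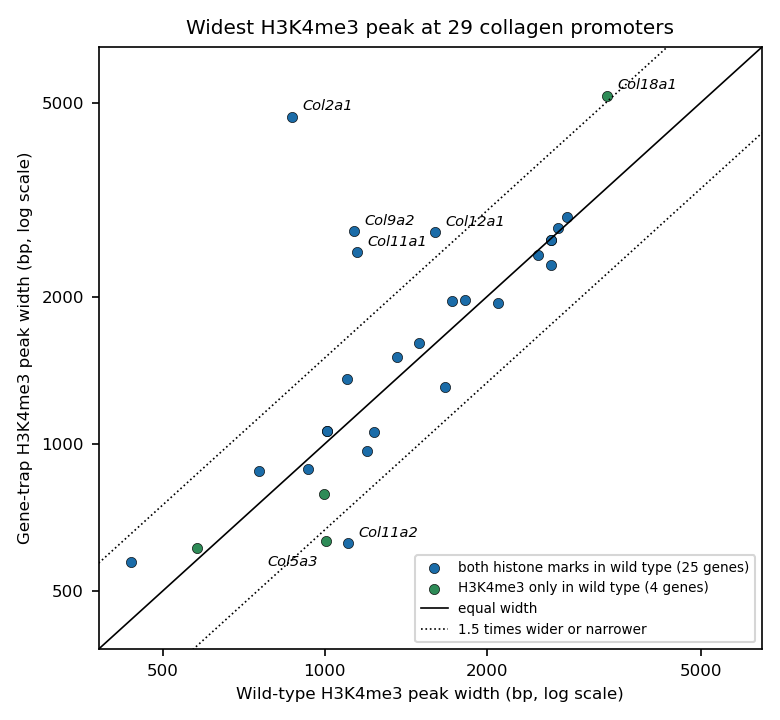
Width of the widest H3K4me3 peak at the 29 collagen promoters marked in both lines. Each point is a gene, with wild-type width in bp on the x axis and gene-trap width in bp on the y axis, both on log scales; the solid line marks equal width and the dotted lines 1.5 times wider or narrower, and the type IV pairs fall on shared points. Col2a1, Col9a2, Col11a1, Col12a1 and Col18a1 lie above the upper line and Col5a3 and Col11a2 below the lower one.

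Genes that make, modify and bind collagens were described by lists chosen for their known roles. Of 33 genes of collagen biosynthesis, which hydroxylate, fold, secrete, trim and cross-link the chains, H3K27me3 touched 16 (48.5%; 20.0% of all genes), EZH2 15 (45.5%; 17.1%), MTF2 14 (42.4%; 16.4%) and H3K4me3 32 (97%; 67.0%) in wild type. In gene trap the lysyl hydroxylase Plod2 kept H3K27me3, with 805 bp against 1848 bp, and the procollagen protease Tll1 kept EZH2, with 169 bp against 2712 bp. The other 15 H3K27me3 and 14 EZH2 promoters had no such peak, against 86.0% of all genes without H3K27me3 and 4.34% still with EZH2. Of 10 collagen receptors, H3K27me3 touched 4 (40%; 20.0% of all genes) and MTF2 3 (30%; 16.4%). None of the receptors kept EZH2 or H3K27me3, where 86.0% of all marked promoters had no H3K27me3 and 4.34% kept EZH2. That is near the background. Of 16 laminins, nidogens and other partners of type IV collagen, H3K27me3 touched 4 (25%) and MTF2 2 (12.5%), near the 20.0% and 16.4% of all genes. None of the 16 kept EZH2 or H3K27me3, again near the background. H3K4me3 touched 15 of these in wild type (93.8%) and 16 in gene trap, where Lamb3 had a peak of 401 bp.

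Of 8 transcription factors that regulate collagen genes, H3K27me3 touched 6 in wild type (75%; 20.0% of all genes) and 4 in gene trap (50%; 2.82% of all). Sp7 and Scx were the promoters with the mark in wild type and none in gene trap, where 86.0% of all marked promoters had none. Sox9, the activator of Col2a1, had 13165 bp in wild type and 5303 bp in gene trap. Its cofactor Sox6 had 13252 and 6437 bp. Runx2, a regulator of bone and cartilage, had H3K27me3 of 8577 and 3113 bp and EZH2 of 5353 and 297 bp. Runx3 had 8756 and 1034 bp of H3K27me3. Col2a1 itself had no gene-trap H3K27me3 within 1 kb of its start, but a peak of 1615 bp lay 3284 bp downstream of the nearest TSS, inside the wild-type domain. Among the marker lists, wild-type H3K27me3 touched 1 of 8 stem cell, 5 of 8 fibroblast and 7 of 7 primitive endoderm markers, and 1, 2 and 5 of these kept it. The stem cell marker was Esrrb, with 8793 bp in wild type and 3046 bp in gene trap. Of the fibroblast markers, Prrx1 had 10162 and 6650 bp, while Twist1 with 18663 bp, Twist2 with 6655 bp and Thy1 with 3312 bp in wild type had none in gene trap. The mark was also listed in gene trap at Pdgfra, a marker on both the fibroblast and the primitive endoderm list, with 14727 and 9664 bp and a gene-trap EZH2 peak of 225 bp. Of the endoderm transcription factors, Foxa2 had 25944 bp in wild type and 11167 bp in gene trap, with gene-trap EZH2 of 466 bp. Gata4 had 20464 and 6043 bp, Gata6 15913 and 5434 bp, and Sox17 12358 and 5162 bp. The other primitive endoderm markers, Sox7 with 6242 bp and Dab2 with 4075 bp in wild type, had no H3K27me3 in gene trap, as was the case for Col4a1 and Col4a2.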

How the data were processed

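The deposited values are genome positions in bp: the authors gave 1 peak list per antibody and line, each with chromosome, start and end and with no height, score or read count. Per the submitters' processing notes, CASAVA, BWA 0.7.10-r789 and MACS2 2.7 were used on mm10 (GRCm38); roles, threshold, control and how libraries were combined are not given in the sources used here, and MAnorm and unbiased appear only in the list names. Both libraries of each group point to 1 list, per the labels.

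Starts, counted from 0 in the lists, were converted to 1-based positions. Peaks were joined to GENCODE M21 starts with Python 3.11.15, and sequence was read with pysam 0.24.0 from the GRCm38 genome. The overlap code was tested on simulated peaks. Shares carry Clopper-Pearson 95% intervals (scipy 1.17.1).

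Named genes were each collagen with MTF2, EZH2 or H3K27me3 at its promoter in either line, each whose H3K4me3 state differed, the 3 widest wild-type H3K4me3 peaks per type and, of the other lists, each gene with gene-trap EZH2 or H3K27me3; further collagens are named to account for every member. The members and lists were chosen with earlier results of these data known. Alternatives were other windows, minimum widths, minimum overlaps and a single TSS per gene.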

Additional observations from a re-analysis of the deposited data

How the results depend on the processing

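Promoter counts were recomputed with windows of 2.5 kb, with a TSS inside the peak, with peaks of at least 500 bp, with at least 200 bp of overlap and with the most upstream TSS alone. The count of collagen promoters with EZH2 in gene trap, and the count that kept EZH2, went from 1 to 0 with peaks of at least 500 bp and with at least 200 bp of overlap, since the Col14a1 peak is 164 bp wide. The other counts moved by less than 1.5 times under these settings: wild-type MTF2 17 to 21, EZH2 16 to 20, H3K27me3 24 to 26, H3K4me3 27 to 30, bivalent 21 to 25, and gene-trap H3K27me3 2 throughout. Accepting gene-trap peaks at any place within the wild-type domain gave 3 genes that kept H3K27me3, the third being Col2a1, and 1 that kept EZH2. No paired analysis was possible because each list stands for both libraries of its group, and for the same reason no replicate could be left out. Depth is unknown, so a missing peak limits binding only as far as the threshold of the list does.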

Other observations

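The type IV collagens on the X chromosome were not among the 42 genes. Col4a5 had H3K4me3 of 656 bp in wild type and 943 bp in gene trap, and no MTF2, EZH2 or H3K27me3 peak in either line, unlike the autosomal type IV genes. Col4a6 had no wild-type peak and an H3K4me3 peak of 587 bp in gene trap. At Mtf2 itself, the trapped gene, the H3K4me3 peak was 21320 bp wide in wild type and 3369 bp in gene trap, and no Polycomb peak was listed.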
